A study of Mus musculus with 4 samples.

Results

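Foxd1, Foxd2, Foxc1, Foxc2, Foxf1, Foxf2 and Foxl1 are 7 mouse genes for forkhead transcription factors that have been linked to Hedgehog signalling. They were taken by symbol, matched to the deposited gene identifiers through GENCODE M21 on GRCm38, and make up 7 of 55573 genes in the files. RNA sequencing was done on primary mouse embryonic fibroblasts, cells grown out of embryos and used before they become a permanent line. All 4 cultures received 100 nM SAG, an agonist of the Hedgehog signal transducer Smoothened, for 24 h, and the study asks how the kinase DYRK2 acts on this pathway. The groups were wild type with no siRNA named, Dyrk2 knockout (the label reads Dyrk2-KO, and the series' text Dyrk2-/-), wild type with the control siRNA siNeg (siNegative), and wild type with siDyrk2, an siRNA against Dyrk2. With 1 library in each group, no difference could be set against the spread between cultures. The labels give neither embryo number, age nor sex, and cultures without SAG were not analysed here, so the values do not show what SAG itself did to these genes.

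Hedgehog ligands bind the receptor Patched and release Smoothened, which moves into the primary cilium and converts the Gli2 and Gli3 proteins into transcriptional activators. Those activators switch on feedback genes of the pathway, among them Gli1, Ptch1 and Hhip. Forkhead factors are a second layer of the response in embryonic mesenchyme, where they pattern the tissue next to a ligand-secreting epithelium. Foxd1 marks the stroma of the developing kidney, and Foxd2 is its close relative. Foxc1 and Foxc2 act in the mesenchyme of the eye, skull, vertebrae and vessels. Foxf1, Foxf2 and Foxl1 act in the mesenchyme under the epithelium of gut and lung.

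All members carry the forkhead domain, which grips DNA with 1 recognition helix. The 30 bases that encode the core of this helix were located by translating each GENCODE transcript. They are shown because they show how alike the genes are where they are most conserved, with capitals at bases that differ from Foxd1:
Foxd1: tggcagaacagcatccgtcacaacctgtcg
Foxd2: tggcagaaTagcatccgCcacaacctCtcC
Foxc1: tggcagaacagcatAcgGcacaacctCtcg
Foxc2: tggcagaacagcatccgCcacaacctgtcA
Foxf1: tggAagaacTCcGtGcgCcacaacctgtcg
Foxf2: tggAagaacTCcGtGcgCcacaacctCtcg
Foxl1: tggcagaacagcatccgCcacaacctgtcg
Foxd2, Foxc1, Foxc2 and Foxl1 differ from Foxd1 here at 4, 3, 2 and 1 bases and at 0 residues. Foxf1 and Foxf2 differ from it at 6 and 7 bases, and both at 2 residues. Of all 50-base windows, Foxc1 and Foxc2 share 4 with each other, 0.07% and 0.15% of their windows, and Foxd1, Foxd2, Foxf1 and Foxf2 share none with another gene. Foxl1 shares 23 (0.87%) with transcripts of many other genes.

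Dyrk2 itself (ENSMUSG00000028630, chromosome 10 at 118855603 to 118870209) was measured at 6.59 FPKM in the wild-type library and at 7.06 with siNeg. It was at 0.57 in the knockout, 11.6-fold lower than wild type (95% counting interval 9.17 to 14.7), and at 0.81 with siDyrk2, 8.70-fold lower than siNeg (7.12 to 10.7). FPKM divides the fragments of a gene by its exon length in kilobases and by the library's depth in units of 1e+06, so it allows levels of different genes to be set side by side. Folds are ratios of estimated fragments at equal depth, and their intervals cover counting error only.

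The values of all 7 genes were lower with either loss of Dyrk2, but beyond counting error in 6 of them in the knockout and in 3 (Foxd1, Foxc1 and Foxf1) with siDyrk2. These intervals lay below 1 in 26.2% and 23.1% of the 12817 genes that reached 1 FPKM in any library. Of the members only Foxc1, Foxc2 and Foxd1 are among those genes. In the knockout 7 of 7 were below wild type, where 55.6% of the 12817 genes were lower. With siDyrk2 7 of 7 were below siNeg, against 45% of those genes, and 28.9% of them were lower in both comparisons. In siNeg against wild type, the comparison of both controls, 4 of the 7 were lower and 3 higher, beside 51% of genes lower. With the controls exchanged, 7 of 7 were lower in the knockout than with siNeg (51.3% of genes) and 6 of 7 lower with siDyrk2 than in wild type (47.3% of genes). In bulk RNA, fewer cells of a type and less RNA per cell cannot be told apart. 3 members, Foxc1, Foxc2 and Foxd1, reached 1 FPKM in any library, and the other 4 are low throughout, so their values rest on few fragments. Protein-coding genes of that low range (highest value 0.1 to 1 FPKM) were lower in 42.3% of cases in the knockout and in 41.3% with siDyrk2, and in 19.2% of cases in both.

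The levels of the 7 genes kept nearly the same order in every library. In wild type Foxc1 stood highest at 6.61 FPKM, followed by Foxc2 (3.53), Foxd1 (2.22), Foxf1 (0.74), Foxd2 (0.68), Foxf2 (0.25) and Foxl1 (0.11). Poisson intervals of Foxf1 (0.539 to 1.0) and Foxd2 (0.488 to 0.915) overlapped, as did those of Foxf2 (0.135 to 0.415) and Foxl1 (0.0435 to 0.223), so the order within these pairs is not settled. Of the other 3 libraries only the knockout changed it, with Foxd2 (0.39 FPKM) just above Foxf1 (0.36). Foxc1 made up 46.7% of the summed level of all 7 in wild type, 50.6% in the knockout, 47.8% with siNeg and 46.5% with siDyrk2. Their levels summed to 14.14 FPKM in the wild-type library, 7.77 in the knockout, 13.75 with siNeg and 9.79 with siDyrk2.

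**Figure D1:**
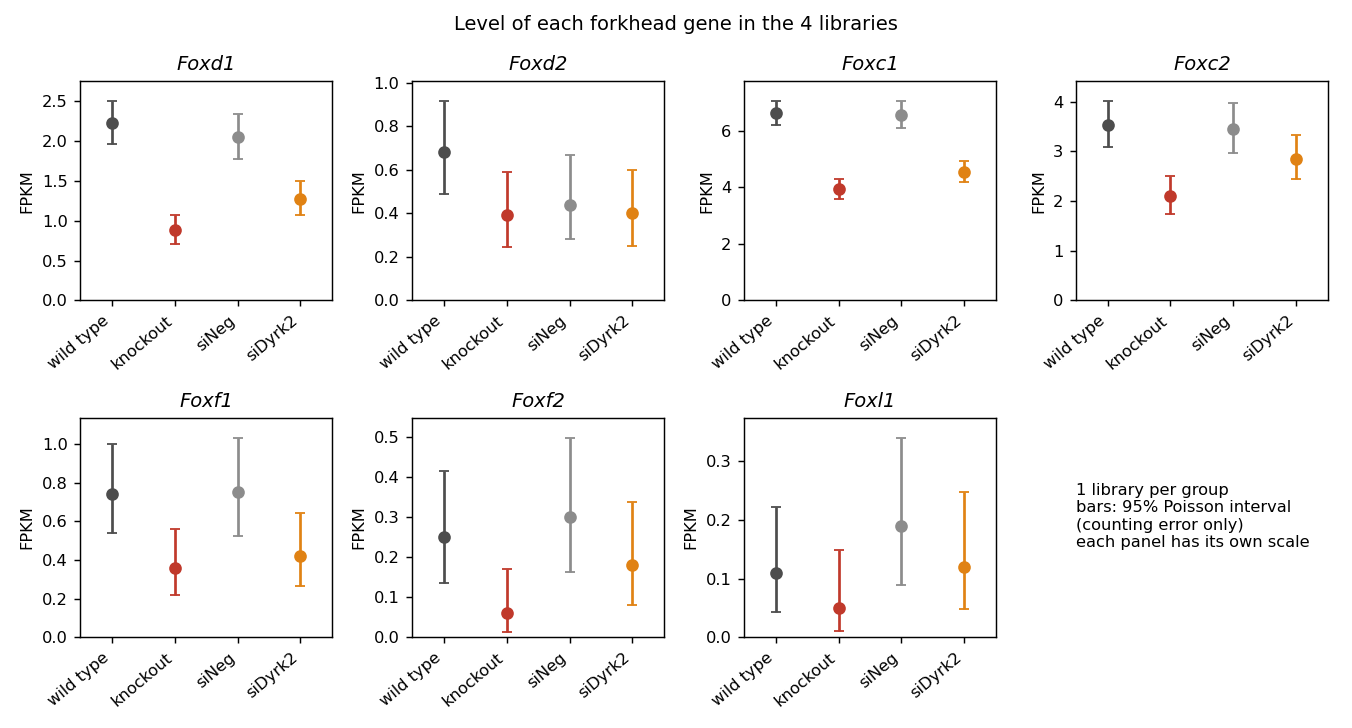
FPKM (vertical axis, from 0, a separate scale in each panel) of each gene in the 4 libraries, 1 point per library, with 95% Poisson intervals that cover counting error only. The knockout point is the lowest in every panel, and for Foxd1 and Foxc1 the intervals of the knockout and siDyrk2 libraries lie below those of both controls.

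Foxd1 had the largest fold among the 3 better measured genes in both comparisons. The gene (ENSMUSG00000078302) is 1 exon on chromosome 13 at 98354242 to 98359305 (GRCm38, plus strand). Its level was 2.22 FPKM in wild type, 0.88 in the knockout, 2.05 with siNeg and 1.27 with siDyrk2. Both controls were thus high and both libraries with lowered Dyrk2 low, with the knockout the lowest. The knockout was 2.54-fold lower than wild type (95% counting interval 2.00 to 3.23, 97 against 269 fragments) and siDyrk2 1.61-fold lower than siNeg (1.29 to 2.01). On the log2(FPKM + 1) scale these were differences of -0.78 and -0.43, and 2.26% and 5.29% of the 12817 genes were as low or lower. On that scale Foxc1 was slightly lower with siDyrk2 (-0.45). The controls differed by -0.08.

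Foxc1, the most abundant of the 7, gave the most precise ratios. It is 1 exon (ENSMUSG00000050295) on chromosome 13 at 31806633 to 31812476, plus strand. Its values were 6.61 FPKM in wild type, 3.93 in the knockout, 6.57 with siNeg and 4.55 with siDyrk2. The controls were almost the same, at a log2 difference of -0.01, and both Dyrk2-lowered libraries lay under them. The knockout was 1.68-fold lower (1.51 to 1.88) and siDyrk2 1.44-fold lower (1.29 to 1.61). In log2(FPKM + 1) the differences were -0.63 and -0.45, and 3.57% and 4.81% of genes were as low or lower.

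Its relative Foxc2 (ENSMUSG00000046714, chromosome 8 at 121116171 to 121118895, plus strand, 1 exon) differed in the knockout by the same factor. Foxc2 stood at 3.53 FPKM in wild type, 2.10 in the knockout, 3.45 with siNeg and 2.85 with siDyrk2. The knockout was 1.68-fold lower (1.35 to 2.11). The siDyrk2 library was lower than siNeg by 1.21-fold, with a counting interval of 0.977 to 1.5 that includes no difference. The log2 differences were -0.55 and -0.21, and in the siRNA comparison 16.0% of genes were as low or lower.

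The promoters of Foxd1 and Foxc1 are shown because these genes differed beyond counting error in both comparisons. They run from 250 bases before to 50 after the start site, from RefSeq on GRCm38.p6, with each CpG dinucleotide in capitals. The Foxd1 stretch is chr13:98353995-98354294 and the Foxc1 stretch chr13:31806396-31806695, both on the plus strand:
Foxd1: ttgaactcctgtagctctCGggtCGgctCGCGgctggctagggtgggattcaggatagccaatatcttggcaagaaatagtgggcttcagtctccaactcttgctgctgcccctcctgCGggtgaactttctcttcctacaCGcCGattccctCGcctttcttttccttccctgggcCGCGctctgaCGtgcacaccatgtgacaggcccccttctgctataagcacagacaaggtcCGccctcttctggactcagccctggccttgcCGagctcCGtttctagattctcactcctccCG
Foxc1: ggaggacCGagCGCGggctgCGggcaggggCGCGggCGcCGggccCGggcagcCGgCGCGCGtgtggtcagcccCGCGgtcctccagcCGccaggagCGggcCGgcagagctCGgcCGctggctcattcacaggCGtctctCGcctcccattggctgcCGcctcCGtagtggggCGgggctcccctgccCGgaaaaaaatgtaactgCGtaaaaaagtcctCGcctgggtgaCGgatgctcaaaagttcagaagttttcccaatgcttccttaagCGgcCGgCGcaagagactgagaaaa
Foxc1 holds 32 CpGs in this window and Foxd1 15, and 9.52% and 34.6% of the 32851 promoters in the table hold as many or more. Foxd2 (26 CpGs) and Foxf2 (27) were the other members in the table, and Foxc2, Foxf1 and Foxl1 were not matched. The Gli binding sequence GACCACCCA, searched on both strands, was in 0 of these 4 promoters and in 0.253% of all promoters. Its 7-base core CCACCCA, which lies within the longer sequence, was in 0 of the 4 and in 9.30% of all. These letters were not in these windows, and other regions were not searched.

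Foxd2 (ENSMUSG00000055210) lies on chromosome 4 at 114906282 to 114908873 on the minus strand, as 1 exon. Its level was 0.68 FPKM in wild type, 0.39 in the knockout, 0.44 with siNeg and 0.40 with siDyrk2. Here wild type was the highest, and siNeg lay close to the libraries with lowered Dyrk2, though its interval against wild type includes no difference (1.52-fold lower, 0.896 to 2.66). The knockout was 1.75-fold lower than wild type (1.02 to 3.07, 22 against 42 fragments), but only 1.14-fold lower than siNeg (0.610 to 2.15). The siDyrk2 ratio was 1.12-fold lower (0.599 to 2.11), which is no detectable difference at this depth.

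Foxf1 was lower with both losses and nearly identical in the controls. The gene (ENSMUSG00000042812, 2 exons, plus strand) lies on chromosome 8 at 121084386 to 121088144. It was at 0.74 FPKM in wild type, 0.36 in the knockout, 0.75 with siNeg and 0.42 with siDyrk2. The knockout was 2.07-fold lower (1.18 to 3.76, 19 against 43 fragments) and siDyrk2 1.76-fold lower (1.01 to 3.14, 22 against 36 fragments). With Foxd1 and Foxc1 it is 1 of the 3 members whose counting intervals kept clear of no difference in both comparisons, which 10.5% of the 12817 genes did. Of protein-coding genes with a highest value of 0.1 to 1 FPKM 1.63% did. Foxf1, with a highest value of 0.75, lies in the upper part of that range. Genes with fewer fragments have wider intervals, so the 1.63% is not a share matched to Foxf1.

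Foxf2 and Foxl1 were near the limit of detection. Foxf2 (ENSMUSG00000038402, chromosome 13 at 31625816 to 31631403, plus strand, 2 exons) was at 0.25 FPKM in wild type, 0.06 in the knockout, 0.30 with siNeg and 0.18 with siDyrk2. Its knockout value rests on 3 fragments against 14, a ratio of 4.27-fold lower with a counting interval of 1.19 to 23.2. The siRNA ratio was 1.67-fold lower (0.674 to 4.38). Foxl1 (ENSMUSG00000097084, chromosome 8 at 121127940 to 121130644, plus strand, 1 exon) was at 0.11, 0.05, 0.19 and 0.12 FPKM in the same order, or 7, 3, 10 and 7 fragments. Both of its ratios, 2.13-fold lower (0.487 to 12.8) and 1.54-fold lower (0.528 to 4.75), have intervals that include no difference. Set against wild type instead of siNeg, Foxl1 with siDyrk2 was level (0.12 against 0.11 FPKM).

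**Figure D2:**
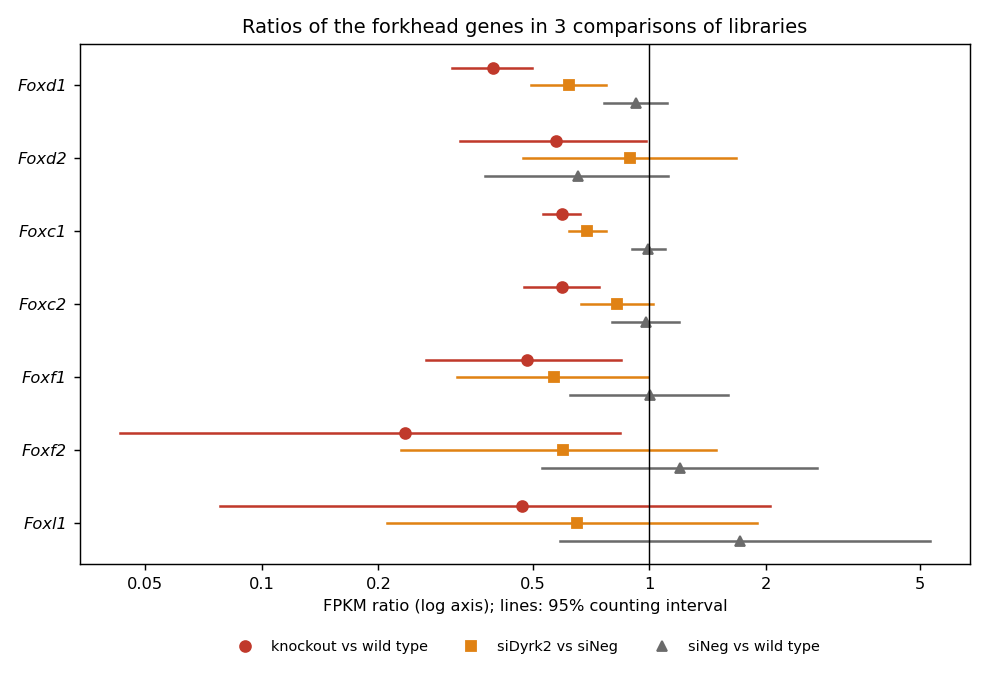
FPKM ratio of each gene (horizontal log axis, 1 means equal) in the 3 comparisons, with 95% counting intervals. The knockout and siDyrk2 points lie below 1 for all 7 genes, and the siNeg against wild type points fall on both sides of it.

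The fold was larger in the knockout than with siDyrk2 in 7 of 7 genes. Of the 3704 genes that reached 1 FPKM in any library and were lower in both comparisons, 50.9% had the larger fold in the knockout. Foxc1, Foxc2 and Foxd1 alone of the members are among those 3704. For Foxl1 the larger fold in the knockout rests on 3 to 10 fragments, and on the log2(FPKM + 1) scale its order was the opposite (-0.08 and -0.09). Foxd2 was level in the knockout and siDyrk2 libraries (0.39 and 0.40 FPKM), and against siNeg its folds were 1.14 and 1.12. The difference between the comparisons was not tested, and for each of the 7 genes the counting intervals of the 2 folds overlapped. The folds ran from 1.68 to 4.27 in the knockout (median 2.07) and from 1.12 to 1.76 with siDyrk2 (median 1.54). Between the controls 0 of 7 members had a counting interval below 1, yet 23.6% of the 12817 genes did, so a counting interval away from 1 is frequent between 2 libraries that both have intact Dyrk2. On FPKM + 1, 2 of 7 members (Foxd1 and Foxc1) were at least 1.5-fold lower in the knockout, beside 4.04% of genes, and 0 of 7 with siDyrk2, beside 2.73%. None reached 2-fold on this scale in either comparison (1.21% and 0.796% of genes did). The median log2 difference over the 7 was -0.36 in the knockout and -0.21 with siDyrk2, against -0.02 and 0.02 over all 12817 genes, and -0.01 between the controls, against -0.01.

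**Figure D3:**
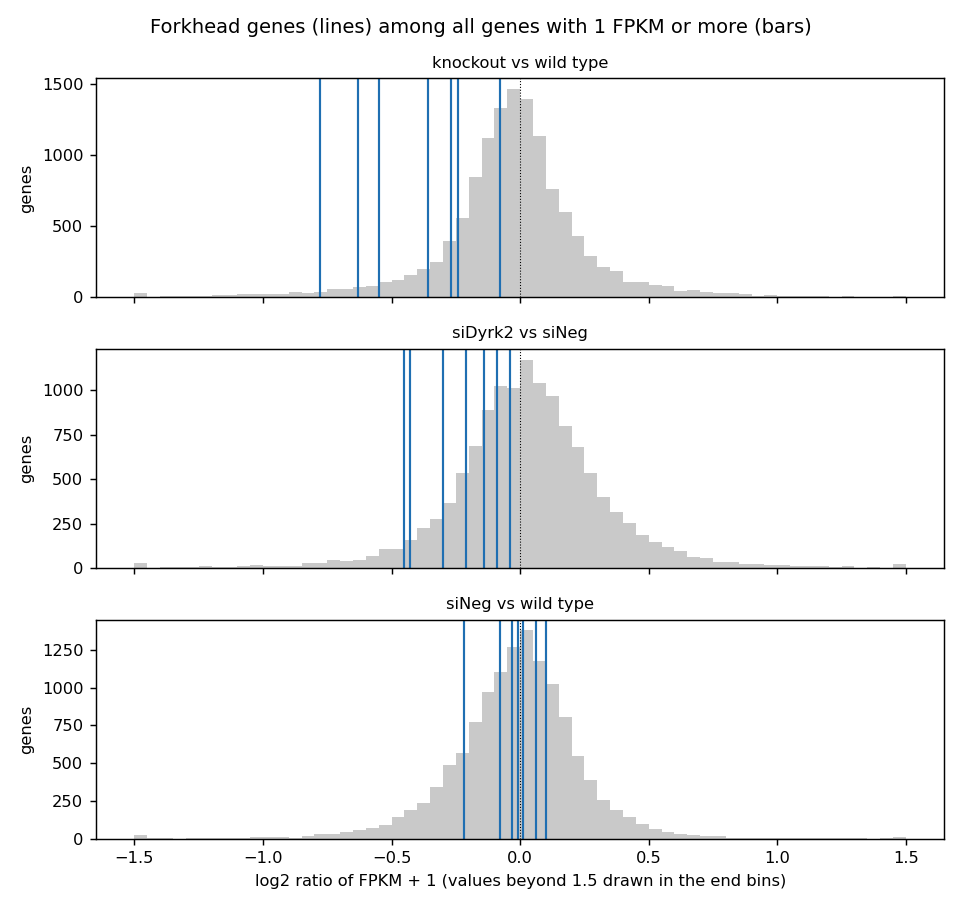
Histograms of the log2 ratio of FPKM + 1 over the 12817 genes (grey bars, number of genes) with the 7 forkhead genes as blue lines, 1 panel per comparison. The lines lie from -0.78 to -0.08 in the knockout and from -0.45 to -0.04 with siDyrk2, and from -0.22 to 0.10 between the controls.

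The forkhead differences were much smaller than those of the feedback genes in the same libraries. Gli1, Ptch1 and Hhip were each at least 2-fold lower on FPKM + 1 in both comparisons. Hhip, which encodes a protein that binds and holds back Hedgehog ligands, had 3.87 FPKM in the wild-type library, 0.15 in the knockout, 2.64 with siNeg and 0.25 with siDyrk2. Those are folds of 25.6 (17.8 to 38.2) and 10.5 (7.82 to 14.4), where Foxc2, at a like level in wild type, had 1.68 and 1.21. Among 12 core pathway genes 6 were lower in the knockout and 9 with siDyrk2, and of them Gli2 alone was at least 2-fold lower, by 2.35-fold and 2.30-fold.

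Other genes with roles downstream of Hedgehog signals in embryonic mesenchyme did not share 1 direction. Of 20 such genes 18 were measured, and 8 were lower and 10 higher in the knockout, with a median log2 difference of 0.09. With siDyrk2 13 were lower and 5 higher, with a median of -0.12. Bcl2, a survival gene, was lower by 2.06-fold (1.84 to 2.32) and 1.65-fold (1.48 to 1.85), close to the folds of Foxf1. Tbx18, a T-box factor of limb and heart mesenchyme, was lower by 1.46-fold (1.29 to 1.65) and 1.38-fold (1.21 to 1.58), and Snai1, a factor of epithelial to mesenchymal transition, by 1.58-fold (1.42 to 1.75) and 1.41-fold (1.29 to 1.53). Snai1 with siDyrk2 (26.81 FPKM) was level with wild type (26.53), and siNeg was higher (37.67). Meox1, a homeobox factor of the somites, was higher in both comparisons, 1.93 times (1.70 to 2.18) and 3.27 times (2.91 to 3.67). Osr2 was 1.9 times, Meox2 1.85 times and Twist1 1.47 times as high in the knockout as in wild type, and with siDyrk2 these 3 were lower than with siNeg by 1.06-fold, 1.2-fold and 1.11-fold. Pax9, a sclerotome factor that like Foxf2 stayed under 1 FPKM, had 0.36 FPKM in the wild-type library and 0.18 in the knockout. It had 0.33 with siNeg and 0.21 with siDyrk2, 1.54-fold lower with an interval (0.878 to 2.75) that includes no difference. Nkx3-2, also under 1 FPKM, went the other way. It was at 0.64 FPKM in the knockout against 0.36 in wild type, and at 0.57 with siDyrk2 against 0.35 with siNeg. Both counting intervals of Nkx3-2 include no difference.

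The rest of the forkhead family went in both directions. Of 37 other forkhead genes 15 reached 1 FPKM, and 7 of them were lower and 8 higher in the knockout (median 0.07), and 10 lower and 5 higher with siDyrk2 (median -0.07). Foxm1, a driver of mitotic gene expression, was lower in the knockout, at 3.92 against 8.30 FPKM, and near siNeg with siDyrk2, at 10.72 against 12.05. Foxs1 was at 11.76 FPKM with siDyrk2 and 6.45 with siNeg, 1.82 times as high (1.51 to 2.21), and at 3.94 in the knockout and 5.04 in wild type. The abundant Foxk2 (-0.23 and -0.03), Foxo3 (0.07 and 0.11), Foxp4 (-0.18 and -0.08), Foxk1 (-0.05 and -0.21), Foxj2 (0.09 and -0.28) and Foxo4 (0.23 and 0.01) stayed within 0.3 on the log2(FPKM + 1) scale in both comparisons. So did Foxn2, Foxn3, Foxj3 and Foxp1.

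**Figure D4:**
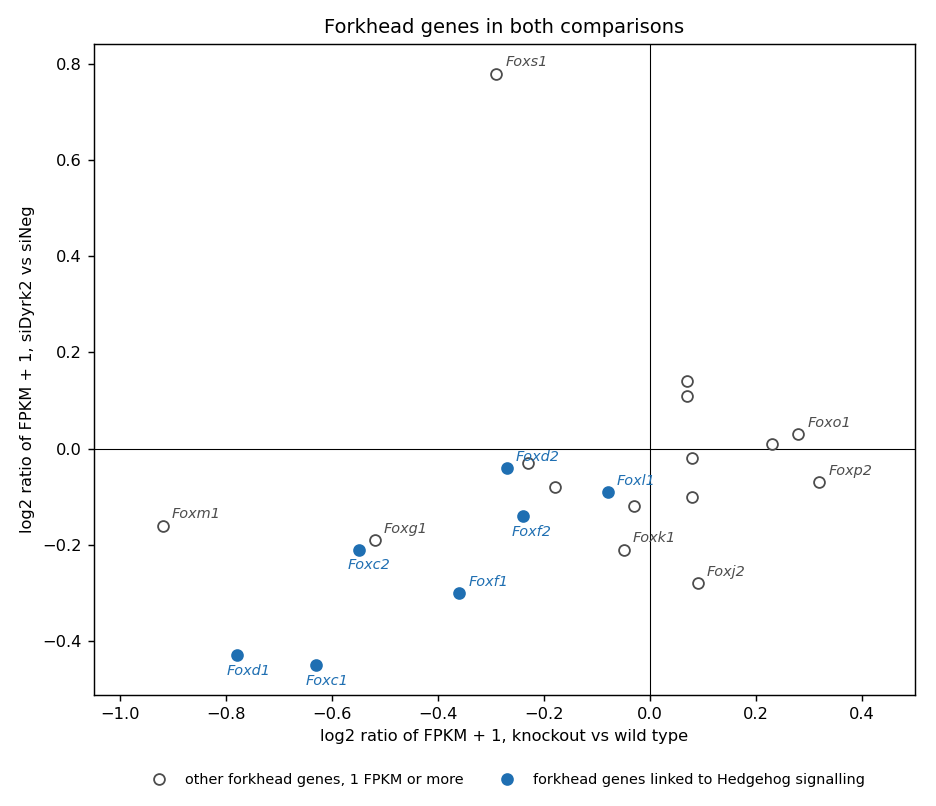
Log2 ratio of FPKM + 1 in the knockout comparison (horizontal) and the siDyrk2 comparison (vertical), 1 point per forkhead gene, for the 7 genes (filled) and the 15 others with at least 1 FPKM (open). All 7 filled points lie below 0 on both axes, and the open points spread to both sides of 0 on the horizontal axis, with Foxs1 alone high above.

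The 7 genes sit at 4 places in the genome, and their neighbours within 250 kb did not all move with them. Foxf1, Foxc2 and Foxl1 lie within 1 cluster on chromosome 8, with 28.0 kb between Foxf1 and Foxc2 and 9.0 kb between Foxc2 and Foxl1. Mthfsd, a gene of folate metabolism that lies between Foxf1 and Foxc2, was at 2.55 FPKM in wild type, 2.68 in the knockout, 2.49 with siNeg and 2.20 with siDyrk2. Fendrr, a long noncoding RNA that starts 1.3 kb from Foxf1 on the other strand, was listed at 0.09, 0, 0.03 and 0.03 FPKM in the same order. Foxf2 and Foxc1 lie 175.2 kb apart on chromosome 13. Gmds, which encodes an enzyme of GDP-fucose synthesis and lies 7.1 kb from Foxc1, was at 7.46 FPKM in wild type, 4.84 in the knockout, 7.77 with siNeg and 6.75 with siDyrk2. It was thus 1.54-fold lower in the knockout (1.35 to 1.76) and 1.15-fold lower with siDyrk2 (1.01 to 1.30). Foxd2os, 0.4 kb from Foxd2 on the other strand, was at 0.60, 0.28, 0.42 and 0.62 FPKM, lower in the knockout like Foxd2 but above siNeg with siDyrk2. The siDyrk2 ratio of Foxd2os has a counting interval (0.895 to 2.49) that includes no difference. The libraries are stranded per the labels' protocols, but whether the counting used strand is not given in the sources used here. Of 9 measured neighbours that are no members, 7 were lower in the knockout and 5 with siDyrk2. Stil, a centriole gene 91.3 kb from Foxd2, was lower in both, by 2.22-fold (1.80 to 2.76) and 1.33-fold (1.13 to 1.57). Arhgef28, 147.8 kb from Foxd1, was lower by 1.43-fold (1.19 to 1.71) and 1.2-fold (0.997 to 1.44). Btf3, Utp15 and Ankra2 near Foxd1 were higher with siDyrk2 than with siNeg, and Cmpk1 near Foxd2 was lower (log2 difference -0.23). Gm10320 near Foxd1 was 1.15 times as high with siDyrk2, with a counting interval (0.578 to 2.32) that includes no difference.

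The members also share a gene structure: 5 are a single exon and 2 have 2, and their longest transcripts hold 54.4% to 62.7% G and C. Of 219 other measured protein-coding genes with up to 2 exons and at least 54.4% GC, 40.2% were lower in the knockout and 40.6% with siDyrk2, with median log2 differences of 0.04 and 0.06.

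Genes whose values followed the same course over the 4 libraries were sought among 7387 protein-coding genes that reached 5 FPKM in any library. Likeness was the Euclidean distance of log2(FPKM + 1) around each gene's own mean, over 4 libraries. Among the nearest to Foxd1 were Plcl1 (distance 0.0641) and Foxc1 (0.108), where the spread of Foxd1 itself was 0.634. Nearest to Foxc1 were Selenoi (0.0397), Plcl1 (0.0838) and Pear1 (0.0976), with Plcl1 at 21.93, 12.89, 20.19 and 15.09 FPKM. Nearest to Foxc2 were Timp3 (0.0513), an inhibitor of matrix metalloproteinases, Peli1 (0.0659) and Rfc4 (0.0690). With 4 libraries such matches are a description only.

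The cultures differed in more than Dyrk2. Estimated depth was 20 to 23.9 M fragments (M, 1e+06). Fibroblast markers were high throughout, with a sum over 11 genes of 8692 FPKM in wild type, 9342 in the knockout, 8519 with siNeg and 7143 with siDyrk2. With siDyrk2 7 of 11 were lower and 4 higher, each beyond counting error, with a median log2 difference of -0.29. The forkhead median of -0.21 cannot be set beside it directly, because the pseudocount of 1 shrinks the differences of low genes. With a pseudocount of 0.1 FPKM the forkhead median was -0.51. Pdgfra was 1.42-fold and Col1a1 1.35-fold lower with siDyrk2 than with siNeg. Pdgfrb was 1.52 times as high with siDyrk2, and Vim was at 615.97 FPKM against 409.94 with siNeg. In the knockout 4 were lower and 7 higher (median 0.06), with Dcn 1.98 times as high and Thy1 1.81-fold lower. The Y-linked Ddx3y was at 8.28 FPKM in the knockout and at most 0.02 in the others, so Y-linked transcripts set the knockout culture apart. No member lies on a sex chromosome. In the knockout 19 of 19 measured G2/M genes were lower (median log2 difference -1.14), 12 of 13 immediate early genes were higher (0.20), and macrophage and leukocyte markers were higher in 9 of 9, with a sum of 494.72 FPKM against 240.02 in wild type. With siDyrk2 14 of 19 G2/M genes were lower and 4 higher (median -0.14), 12 of 13 immediate early genes were higher (0.30), and macrophage markers were higher in 8 of 9, at 338.74 against 273.30 FPKM in sum. Lyz2 alone made up most of each macrophage sum, at 328.57 against 152.06 FPKM and at 196.09 against 154.19. Beyond counting error 8 of the 9 macrophage markers were higher in the knockout and 7 with siDyrk2. In siNeg against wild type, where the forkhead median was -0.01, G2/M genes were higher in 19 of 19 (median 0.50), macrophage markers in 9 of 9 and immediate early genes lower in 13 of 13 (-0.59). Mesothelial markers were higher in 4 of 4 measured in the knockout (sum 9.31 against 5.75 FPKM) and in 3 of 4 with siDyrk2 (11.43 against 8.87). Smooth muscle and pericyte markers summed to 358.92 FPKM in the knockout against 581.60, with 5 of 7 lower and 2 higher. With siDyrk2 they summed to 1256.99 against 705.33, with 7 of 7 higher, so the sums went in opposite directions. Acta2 alone made up most of each sum, at 322.19 against 536.77 FPKM and at 1204.72 against 668.51. Of 9 endothelial markers Tek alone reached 1 FPKM, Pecam1 was at most 0.05 FPKM, Tie1 was at 0, and their sum was 4.93 to 7.07 FPKM. No epithelial marker reached 1 FPKM (sum 0.36 to 0.89 FPKM, with Esrp1 and Cldn4 at 0), and of 6 neural markers Map2 and Tubb3 did (sum 10.58 to 24.80, with Dcx at 0). The part of these shifts in the forkhead values was not tested.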

How the data were processed

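Per the labels' protocols, total RNA was treated with DNase and turned into stranded libraries after polyA selection. Tools named in the submitters' processing notes are cutadapt 1.9.1 and HISAT2 2.0.1, with the build GRCm38. Which program counted the fragments is not given in the sources used here. Values were deposited as FPKM with 2 decimals, beside exonic gene lengths, per the file headers. Of 55573 identifiers 55480 matched GENCODE M21.

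The depth that puts genes of up to 200 bases on whole fragments was searched for in each library (332 to 392 genes, 99.4% to 100% whole within the rounding of the deposited values). Folds are ratios of the fragments so estimated, divided by depth, with exact 95% conditional binomial intervals; levels carry exact Poisson intervals. Both cover counting error only. Log2 differences use deposited FPKM plus a pseudocount of 1, which understates those of low genes. Since no group has replicates, there are no p-values. Depth search and intervals were tested on simulated Poisson counts. For the intervals, only genes with more expected fragments in the control than Foxf2 and Foxl1 had were used. Scripts used Python 3.11.15, scipy 1.17.1, pandas 2.3.3 and Biopython 1.88.

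The members and lists were chosen with earlier results of these data known. By rule all 7 members were named, other forkhead genes of at least 5 FPKM, neighbours within 250 kb of at least 1 FPKM, the 3 genes of most similar pattern and genes of the lists. Fendrr, Foxd2os and the list genes given with values were chosen after their values were seen. Other pseudocounts, scalings, filters and control libraries were tried. Some genes that the rule names are not reported here.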

Additional observations from a re-analysis of the deposited data

Results flagged for a closer look

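Btf3, a gene 37.2 kb from Foxd1, went in opposite directions in the 2 comparisons, with both counting intervals away from 1. It was at 98.51 FPKM in the knockout against 103.71 in wild type and at 121.88 with siDyrk2 against 116.65 with siNeg. Its log2 difference in the knockout minus that with siDyrk2 was -0.14, which was not tested, because no group has replicates. None of the 7 forkhead genes did so.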

How the results depend on the processing

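A pseudocount cannot change which of 2 values is higher, so it does not bear on the count of members lower. The scalings tried moved all ratios alike by at most 0.03. With them the count stayed at 7 of 7 in the knockout and with siDyrk2. In siNeg against wild type it went from 4 to 3 with either scaling. With siNeg as control for the knockout, 7 of 7 were lower. With wild type as control for siDyrk2, 6 of 7 were lower and Foxl1 was at 0.01. A filter of 5 FPKM leaves 1 member, which was lower in each of the 3 comparisons, and one of 1 FPKM, an alternative chosen after seeing the data, leaves 3, which were lower in the knockout, with siDyrk2 and also in siNeg against wild type (median -0.03). The median log2 difference over members depended on the pseudocount. In the knockout it was -0.36 as reported, -0.74 with 0.1 FPKM and -0.10 with 5 FPKM, and with siDyrk2 -0.21, -0.51 and -0.09. Scaling turned the siNeg median to 0.00 and 0.01.

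Counts over all genes depended on the treatment of low values. In the order knockout, siDyrk2 and siNeg against wild type, 849, 833 and 485 genes were at least 1.5-fold different and 228, 198 and 119 at least 2-fold. With a pseudocount of 0.1 FPKM these became 1477, 1490 and 1090, and 607, 506 and 340. With a pseudocount of 5 FPKM they were 201, 216 and 76, and 22, 33 and 11. With a filter of 5 FPKM they were 401, 437 and 210, and 103, 85 and 32. No paired analysis was possible because each group holds 1 library. Leaving out a replicate was not possible either. Depth limits Foxf2 and Foxl1 most, at 3 to 14 fragments per library.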
